A study of Mus musculus with 6 samples.

Results

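Lysosomes digest what cells take up and what they wall off from their own cytoplasm by autophagy, and 36 genes of that machinery are described here in 4T1 mouse mammary carcinoma cells. The deposited table names them 4T1_T, a term that the labels do not describe. The members were listed by symbol: soluble hydrolases and their helpers, lysosomal membrane proteins, the proton pump, the MiT/TFE transcription factors, the ATG8 proteins with a cargo receptor, and factors that start autophagy or conjugate ATG8. All 36 were found among the 23481 genes of the deposited table of read counts, and all 36 passed the filter on low counts that left 12457 genes for testing. The cells carried 1 of 3 short hairpin RNAs: shAsns-2 or shAsns-1, both directed at Asns (asparagine synthetase), or shRenilla, a control against a luciferase that mouse cells lack. All cells were infected with a hairpin and cultured in DMEM to which non-essential amino acids, a supplement that commonly contains asparagine, had been added. Each hairpin had libraries A and B in the labels, but shAsns-1 B held 0 reads at every gene, which left 2 libraries of shAsns-2, 1 of shAsns-1 and 2 of shRenilla. Nothing in the labels tells whether A and B came from separate cultures or infections, so p-values measure the spread between these libraries, which may be technical.

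Lysosomal enzymes are made at the endoplasmic reticulum, tagged with mannose 6-phosphate in the Golgi and delivered to an organelle that a vacuolar ATPase keeps acid. Autophagy encloses cytoplasm in a membrane decorated with lipid-bound ATG8 proteins, which then fuses with the lysosome. Both are tied to amino acid supply: when amino acids are plentiful, mTORC1 on the lysosome phosphorylates TFEB and TFE3, which stay in the cytoplasm, and it holds back ULK1. When amino acids run short these factors enter the nucleus and bind a palindromic element named CLEAR, found in the promoters of many lysosomal genes. This control acts largely on proteins and their location, which counts of RNA do not measure.

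The element was searched for because TFEB and TFE3 bind it, as described above. In RefSeq promoter windows of GRCm38.p6, which run from 250 bases before a start site through 50 bases from it on, 30 of the 36 members had at least 1 window. The palindrome TCACGTGA, which reads the same on both strands and forms the core of CLEAR, stood in the windows of 6 of these 30 members (20%), against 1.12% of the 27025 genes with a window. By window, it stood in 6 of 37 windows of members and in 0.974% of all 32851 windows. The shorter E-box CACGTG, which TCACGTGA contains, stood in 11 of the 30 members and in 8.09% of all genes (7.15% of windows). The palindrome with a further G before it and C after it stood in 0 of the 30 and in 0.370% of all genes (0.326% of windows). A match is a description of these letters and not a measured binding site. The 6 members are shown because they carry the palindrome, each in the sense of its gene with TCACGTGA in capitals.
Ctsa: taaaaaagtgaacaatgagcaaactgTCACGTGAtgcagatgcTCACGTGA
Ctsd: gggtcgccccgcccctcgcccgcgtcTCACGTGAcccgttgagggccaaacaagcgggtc
Gla: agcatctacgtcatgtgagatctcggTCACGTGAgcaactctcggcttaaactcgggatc
Mcoln1: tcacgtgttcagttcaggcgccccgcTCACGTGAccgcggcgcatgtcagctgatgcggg
Atp6v0d1: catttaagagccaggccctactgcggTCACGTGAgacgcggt
Atp6v1a: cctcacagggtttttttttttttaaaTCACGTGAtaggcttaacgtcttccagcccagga

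These stretches lie at chr2:164833734-164833784 on the plus strand (Ctsa), chr7:142387893-142387952 on the minus strand (Ctsd), chrX:134601167-134601226 on the minus strand (Gla), chr8:3500447-3500506 on the plus strand (Mcoln1), chr8:105566053-105566094 on the minus strand (Atp6v0d1) and chr16:44139358-44139417 on the minus strand (Atp6v1a). The first base of the palindrome stood 13 bases before the annotated start in Ctsa and 4 bases before it in Atp6v0d1, counting the copy nearest before the start. It stood 46 bases before the start in Mcoln1, 99 in Ctsd, 132 in Atp6v1a and 195 in Gla. The window of Ctsa held the palindrome 2 times, and so did that of Gla.

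Reads assigned to genes numbered 10244753 to 15955168 per library, where CPM is reads per 1000000 such reads and a floor of 3 reads equals 0.188 to 0.293 CPM. Asns had 45.7 and 44.2 CPM in the shAsns-2 libraries (A, then B) and 110 CPM in the library labelled shAsns-1, against 58.7 and 56.9 CPM in shRenilla A and B. In shAsns-2 it was thus at 0.79-fold (95% interval 0.70 to 0.90, adjusted p = 0.216 in edgeR's quasi-likelihood test, as for all adjusted p-values here). In the other hairpin's library it was 1.89-fold higher than in shRenilla (adjusted p = 6.27e-05), which goes against its label, and it is therefore named by that label only. That library had reads at 17672 genes, against 15052 to 15392 in the others. The 7 epithelial markers summed to 1145 and 1139 CPM in shAsns-2 and to 916 CPM in the library labelled shAsns-1, against 1117 and 1098 CPM in shRenilla. Of the 7 macrophage and leukocyte markers, a lineage rich in lysosomes, Lyz2 had 0 reads in every library and Cd14 held most of a sum of 6.98 to 8.30 CPM. Fibroblast markers, nearly all of it Pdgfra, summed to 29.8 and 29.7 CPM in shAsns-2 and to 39.3 CPM in the library labelled shAsns-1, against 28.9 and 29.1 CPM in shRenilla, and the 4 endothelial markers to 0.360 to 1.43 CPM. The part of these differences in the results below was not tested.

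Per length, the members covered a wide range of levels. In shRenilla, Lamp1, a heavily glycosylated protein of the lysosomal membrane, stood at 384 RPKM (CPM per kilobase of merged exons) and Ctsl, the cysteine protease cathepsin L, at 355 RPKM. Cd63, a tetraspanin of lysosomes and exosomes, followed at 145 RPKM. Then came Ctsd, the aspartic protease cathepsin D, at 89.0 RPKM, and Atp6ap1, an accessory subunit of the proton pump, at 74.7 RPKM. Of the factors that regulate the set, Tfeb at 0.409 RPKM and Mitf at 1.35 were the lowest of all members, while Tfe3 at 15.6 RPKM stood in mid-range. By level of RNA, Tfe3 was thus the highest of the 3 listed MiT/TFE factors in these cells. Among the ATG8 genes Gabarap led with 40.4 RPKM, ahead of Map1lc3b at 17.5, Gabarapl1 at 14.5, Gabarapl2 at 12.2 and Map1lc3a at 1.96. The cargo receptor Sqstm1 (p62), which ties ubiquitin-marked cargo to ATG8, stood at 45.0 RPKM.

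**Figure D1:**
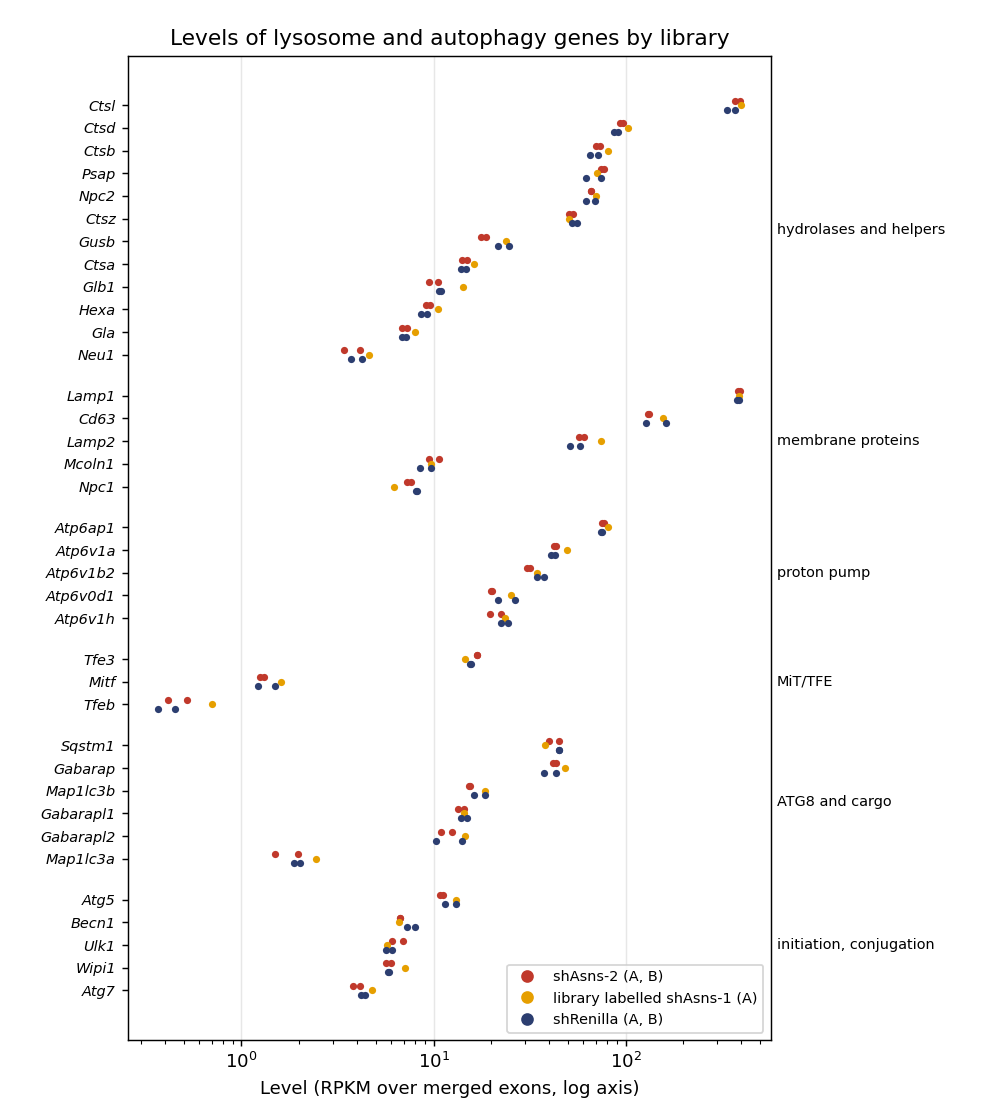
Level of each of the 36 genes in RPKM over merged exons (log axis), with 1 point per library coloured by hairpin, grouped by role and ordered by the shRenilla mean. Lamp1 and Ctsl are the highest in every library and Tfeb lies under 1 RPKM, while points of different hairpins sit close together in most rows.

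Reads shared with other genes limit some of these levels. Of the 36 members, 21 had a longest coding transcript with no stretch of 50 bases found in a transcript of another gene (GENCODE M21). The share of such stretches was 45.7% in Becn1, whose exons overlap Cntd1 on the other strand, and 36.6% in Ctsd, which shares exons with the gene model Gm49369. It was 36.5% in Cd63, which has the pseudogene Cd63-ps, 28.1% in Ctsl, 20.4% in Sqstm1 and 18.6% in Gabarapl1. It was 17.0% in Gabarapl2, 15.8% in Ctsa, 15.4% in Ctsb and 10.6% in Hexa. Whether the counting used strand is not given in the sources used here, so the levels of these 10 genes are uncertain to that extent.

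In shAsns-2, compared with shRenilla, edgeR called none of the 36 members, where 0.0642% of all genes were called (8 of 12457). The count was 0 of 36 in DESeq2 and in limma-voom as well. At an unadjusted p under 0.05 there were 3 members, Gusb, Atp6v0d1 and Atp6v1b2, against 9.63% of all genes, and all 3 had lower values in shAsns-2 (4.05% of all genes on that side). The median log2 fold change of the 36 was 0.0046, beside -0.0014 over all genes tested. Above 0 lay 18 members, beside 6185 of 12457 genes. In such bulk samples, fewer cells of a type and less RNA per cell cannot be told apart. The fit bounded these differences: the 95% interval (unadjusted) lay within 1.5-fold in both directions for 34 of 36 members, against 74.8% of all genes. The exceptions were Tfeb and Map1lc3a, the members with the lowest CPM. In CPM, libraries of the groups did not overlap at 14 members, against 42.4% of all genes. Of these, 4 members lay above both shRenilla libraries (16.6% of all genes) and 10 below both (25.8% of all genes). CPM leaves out the TMM factors by which the fit scales library sizes. Those factors were lower for both shAsns-2 libraries than for both shRenilla libraries, so CPM places shAsns-2 lower against the controls than the fit does. Statements that libraries lay above, below or across the controls, here and further on, hold for CPM only. With scaled values some members would change sides or overlap.

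In what follows, values of a hairpin with 2 libraries are given as A, then B. Among the hydrolases and their helpers, 0 of 12 were called in shAsns-2 and the median log2 fold change was 0.043. Gusb encodes β-glucuronidase, which trims glycosaminoglycans. It had 66.7 and 70.8 CPM in shAsns-2 and 90.2 CPM in the library labelled shAsns-1, against 81.3 and 93.0 CPM in shRenilla. Both shAsns-2 values lay below both controls, at 0.81-fold (log2 fold change -0.31, SE 0.0890, unadjusted p = 0.00286, adjusted p = 0.262). Psap, the precursor of the saposins that present lipids to hydrolases, had 205 and 212 CPM in shAsns-2, 194 CPM in the library labelled shAsns-1, and 205 and 171 CPM in shRenilla. The shRenilla libraries stood further apart at Psap than shAsns-2 A and shRenilla A did. Cathepsin D had 205 and 199.9 CPM in shAsns-2 and 219 CPM in the library labelled shAsns-1, against 193 and 185 CPM in shRenilla. Here the shAsns-2 values lay above the controls by a log2 fold change of 0.13 (95% interval -0.04 to 0.29, adjusted p = 0.627). Cathepsin L, the hydrolase with most reads, had 2279 and 2429 CPM in shAsns-2 and 2473 CPM in the library labelled shAsns-1, and 2292 and 2082 CPM in shRenilla. Its groups overlapped in CPM between shAsns-2 and shRenilla.

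Of the other hydrolases, Ctsb (cathepsin B) had 333 and 348 CPM in shAsns-2 and 384 CPM in the library labelled shAsns-1, against 308 and 342 CPM in shRenilla. Glb1, the β-galactosidase whose activity marks senescent cells, had 22.8 and 25.2 CPM in shAsns-2 and 34.0 CPM in the library labelled shAsns-1, against 25.4 and 26.2 CPM in shRenilla. In CPM the shAsns-2 values lay just below the controls and the other hairpin's library lay above both. Npc2, a soluble carrier that hands cholesterol to NPC1, had 218 and 217 CPM in shAsns-2 and 229.97 CPM in the library labelled shAsns-1, against 205 and 228 CPM in shRenilla. The remaining hydrolases were Ctsa (protective protein), Ctsz (cathepsin Z), Hexa (β-hexosaminidase α chain), Gla (α-galactosidase A) and Neu1 (sialidase). Their groups overlapped between shAsns-2 and shRenilla, with means of 9.36 to 74.9 CPM in shAsns-2 and 9.88 to 78.5 CPM in shRenilla.

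Of the membrane proteins, 0 of 5 were called in shAsns-2, with a median log2 fold change of 0.047. Lamp2, which is needed for fusion and for chaperone-mediated autophagy, had 305 and 289 CPM in shAsns-2 and 375 CPM in the library labelled shAsns-1, against 259 and 293 CPM in shRenilla. The shAsns-2 values overlapped the controls in CPM, with a log2 fold change of 0.14 (95% interval -0.04 to 0.31, adjusted p = 0.623). Lamp1 was the steadiest of the abundant members, with 878 and 858 CPM in shAsns-2, 868 CPM in the library labelled shAsns-1, and 868 and 845 CPM in shRenilla. Npc1, which exports cholesterol from the lysosome, had 39.9 and 37.9 CPM in shAsns-2 and 32.6 CPM in the library labelled shAsns-1, against 42.3 and 42.7 CPM in shRenilla. Both shAsns-2 libraries lay below both controls at Npc1, and so did the library labelled shAsns-1, whose Asns was higher. Mcoln1, the calcium channel TRPML1, had 22.0 and 19.4 CPM in shAsns-2 and 20.1 CPM in the library labelled shAsns-1, against 20.1 and 17.6 CPM in shRenilla. Cd63 had 190.3 and 192 CPM in shAsns-2 and 228 CPM in the library labelled shAsns-1, against 186 and 236 CPM in shRenilla, so the controls spanned every other library.

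The proton pump had 0 of 5 members called in shAsns-2, with a median log2 fold change of -0.13. Both shAsns-2 libraries lay below both controls at 3 members, as at 25.8% of all genes. Atp6v0d1, a subunit of the membrane sector, had 32.7 and 32.6 CPM in shAsns-2 and 41.4 CPM in the library labelled shAsns-1, against 35.5 and 43.3 CPM in shRenilla. The log2 fold change was -0.24 for shAsns-2 over shRenilla (SE 0.106, unadjusted p = 0.0384, adjusted p = 0.49). At this gene shAsns-2 A and B nearly coincided while the controls stood well apart. Atp6v1b2, which pairs with the catalytic A subunit, had 86.3 and 89.8 CPM in shAsns-2 and 97.5 CPM in the library labelled shAsns-1, against 98.1 and 106 CPM in shRenilla (log2 fold change in shAsns-2 -0.19, unadjusted p = 0.0389, adjusted p = 0.492). Atp6v1h, a regulatory subunit, had 42.7 and 48.6 CPM in shAsns-2 and 51.1 CPM in the library labelled shAsns-1, against 49.1 and 53.4 CPM in shRenilla. At all 3 of these subunits both shAsns-2 libraries lay below both controls. Atp6v1a, the catalytic A subunit, and Atp6ap1 had fitted log2 fold changes above 0 in shAsns-2 (0.06 each), while their CPM overlapped the controls. Atp6v1a had 179.7 and 185 CPM in shAsns-2 and 211 CPM in the library labelled shAsns-1, against 174 and 182 CPM in shRenilla. Atp6ap1 had 169 and 174 CPM in shAsns-2 and 182 CPM in the library labelled shAsns-1, against 167 and 169.8 CPM in shRenilla. The pump's subunits thus did not lie on 1 side of the controls.

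No MiT/TFE factor was called in shAsns-2 or in the library labelled shAsns-1. Tfe3 had 61.1 and 60.9 CPM in shAsns-2 and 53.1 CPM in the library labelled shAsns-1, against 56.0 and 56.7 CPM in shRenilla. The replicates of both hairpins were tight, and shAsns-2 lay above the controls by a log2 fold change of 0.14 (95% interval -0.04 to 0.32, adjusted p = 0.611). Tfeb was low, with 2.10 and 1.66 CPM in shAsns-2 and 2.83 CPM in the library labelled shAsns-1, against 1.82 and 1.47 CPM in shRenilla, or 21 to 29 reads per library. Its fold change in shAsns-2 was bounded only to between 0.70 and 1.86. Mitf, the factor of the family named for melanocytes, had 6.97 and 6.62 CPM in shAsns-2 and 8.59 CPM in the library labelled shAsns-1, against 6.46 and 7.91 CPM in shRenilla. Of 5 melanocyte genes, Tyr had 0 reads in every library and all 5 together reached at most 1.05 CPM, so Mitf transcripts were counted without those of the pigment genes.

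The ATG8 genes and Sqstm1 had 0 of 6 members called in shAsns-2, with a median log2 fold change of -0.044. Map1lc3b, the LC3 protein most used as an autophagosome marker, had 79.7 and 80.3 CPM in shAsns-2 and 96.2 CPM in the library labelled shAsns-1, against 84.5 and 96.4 CPM in shRenilla. The shAsns-2 values lay below both controls, with a log2 fold change of -0.15 (95% interval -0.33 to 0.04, adjusted p = 0.606). Map1lc3a was low, with 2.20 and 1.66 CPM in shAsns-2 and 2.73 CPM in the library labelled shAsns-1, against 2.26 and 2.10 CPM in shRenilla. Gabarap, which acts late in autophagosome formation, had 56.8 and 58.7 CPM in shAsns-2 and 65.3 CPM in the library labelled shAsns-1, against 50.6 and 58.5 CPM in shRenilla. Its relative Gabarapl1 had 26.1 and 24.4 CPM in shAsns-2 and 26.4 CPM in the library labelled shAsns-1, against 27.3 and 25.4 CPM in shRenilla. Map1lc3a was thus the rarest ATG8 transcript in every library. Gabarapl2 had 18.2 and 21.02 CPM in shAsns-2 and 24.4 CPM in the library labelled shAsns-1, against 17.3 and 23.7 CPM in shRenilla. The groups shAsns-2 and shRenilla overlapped at each of these last 4 genes. Sqstm1 had 113 and 127 CPM in shAsns-2 and 108 CPM in the library labelled shAsns-1, against 127 and 127 CPM in shRenilla. Only shAsns-2 A separated from the controls within its pair, and the library labelled shAsns-1 was the lowest of the 5.

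Of the factors that start autophagy or conjugate ATG8, 0 of 5 were called in shAsns-2 (median log2 fold change -0.084). Ulk1, the kinase that mTORC1 restrains, had 36.1 and 32.0 CPM in shAsns-2 and 29.9 CPM in the library labelled shAsns-1, against 31.8 and 29.5 CPM in shRenilla. Becn1 (Beclin 1), part of the lipid kinase complex that follows ULK1, had 31.4 and 31.5 CPM in shAsns-2 and 31.0 CPM in the library labelled shAsns-1, against 34.3 and 37.7 CPM in shRenilla. Both shAsns-2 libraries and the library labelled shAsns-1, whose Asns was higher, lay below both controls at Becn1, by a log2 fold change of -0.16 in shAsns-2 (adjusted p = 0.617) and -0.22 in the library labelled shAsns-1 (adjusted p = 0.35). Atg5, which carries the conjugate with ATG12, had 26.3 and 25.6 CPM in shAsns-2 and 30.8 CPM in the library labelled shAsns-1, against 30.8 and 27.1 CPM in shRenilla. Atg7, the activating enzyme of both conjugation pathways, had 15.6 and 16.9 CPM in shAsns-2 and 19.6 CPM in the library labelled shAsns-1, against 17.2 and 18.1 CPM in shRenilla. Wipi1, which reads phosphoinositides on the forming membrane, had 24.2 and 25.6 CPM in shAsns-2 and 30.3 CPM in the library labelled shAsns-1, against 25.2 and 24.6 CPM in shRenilla. At Atg5 and Atg7 the shAsns-2 values lay below both controls, and at Wipi1 they enclosed them.

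**Figure D2:**
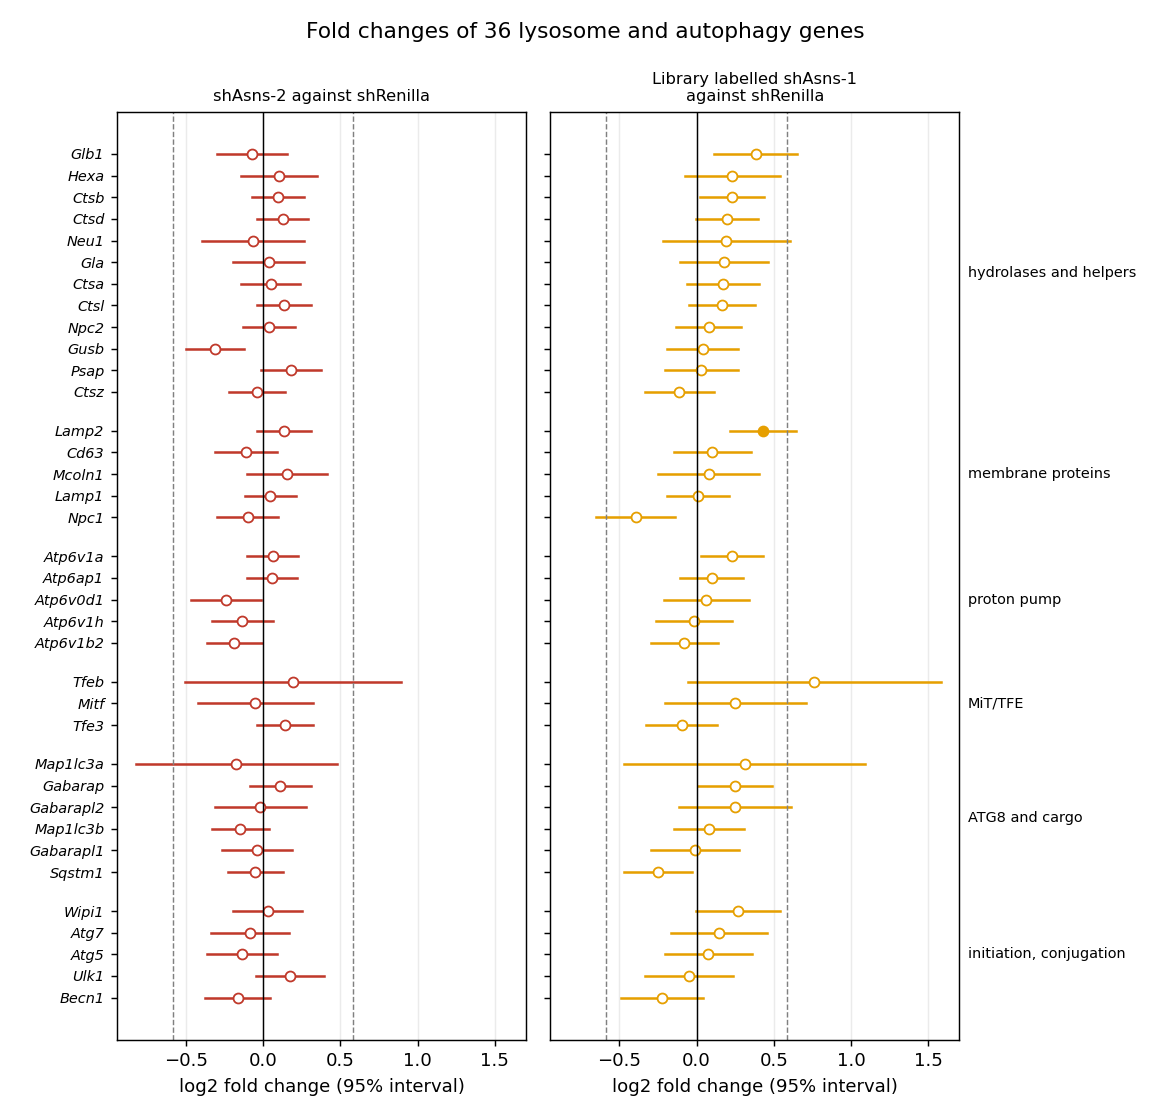
log2 fold change of each member with its 95% interval, for shAsns-2 against shRenilla (left) and the library labelled shAsns-1 against shRenilla (right). Filled points are called at an adjusted p under 0.05 and dashed lines mark 1.5-fold. Lamp2 in the right panel is the filled point, and on the left 34 of 36 intervals stay between the dashed lines.

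Added up over all 36 members, their transcripts made up 5955 and 6120 CPM in shAsns-2 and 6449 CPM in the library labelled shAsns-1, against 5902 and 5833 CPM in shRenilla. Most of this sum came from the hydrolases, at 3509 and 3680 CPM in shAsns-2 and 3814 CPM in the library labelled shAsns-1, against 3492 and 3307 CPM in shRenilla. By summed CPM of a subclass, shAsns-2 lay above both controls for the hydrolases and the MiT/TFE factors. It lay below both for autophagy initiation and conjugation. It overlapped the controls for membrane proteins, the pump and the ATG8 genes with Sqstm1. The mean sum of the pump was 520 ± 13.9 CPM in shAsns-2 and 539 ± 22.6 CPM in shRenilla (SD, n = 2 each). That of the MiT/TFE factors was 69.7 ± 0.701 CPM in shAsns-2 and 65.2 ± 1.29 CPM in shRenilla (SD, n = 2 each). Ctsl made up most of the hydrolase sum (2279 and 2429 CPM in shAsns-2, 2292 and 2082 CPM in shRenilla). Tfe3 made up most of the MiT/TFE sum. An exact permutation test of such a sum, 2 libraries against 2, cannot go below p = 0.333 (two-sided), and none was made.

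**Figure D3:**
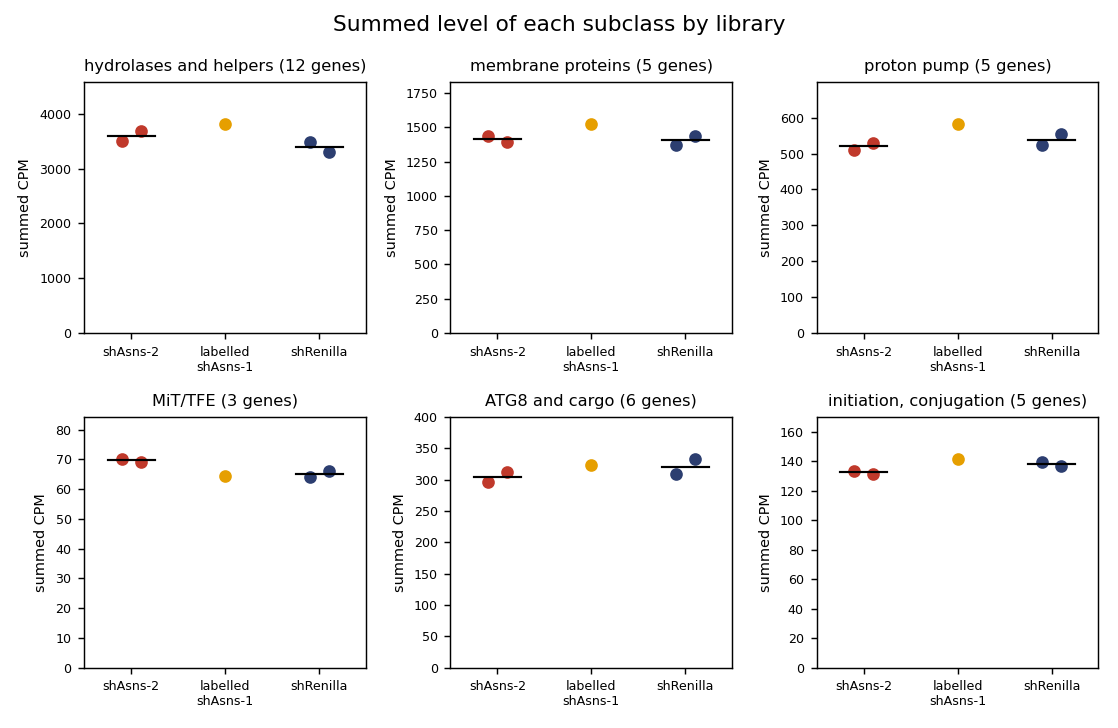
Summed CPM of each subclass in every library, with shAsns-2, the library labelled shAsns-1 and shRenilla from left to right. Horizontal lines are means of 2 libraries and axes start at 0. The hydrolase sum is 3814 CPM in the library labelled shAsns-1, above all 4 other libraries.

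In the library labelled shAsns-1, the one with more Asns reads than the controls, 1 of the 36 members was called, Lamp2, where 4.37% of all genes were called (2.31% higher). DESeq2 and limma-voom each called 1 member too. In the same library the fibroblast sum was higher and the epithelial sum lower than in all others, and the part of this in the result was not tested. Lamp2 was 1.35-fold higher (log2 fold change 0.43, SE 0.10, 95% interval 0.22 to 0.64, adjusted p = 0.0227). The call ended without shAsns-2 A (adjusted p = 0.077), without shAsns-2 B (0.0751) or without shRenilla A (log2 fold change 0.35, adjusted p = 0.0653). It held without shRenilla B, where the log2 fold change was 0.51 (adjusted p = 0.00683). The transcript of Lamp2 is poor in GC (38.7%, against a median of 51.6% over the members), and with the GC trend of each library removed its log2 fold change was 0.26 (adjusted p = 0.193). Over all genes with a GC value the log2 fold change of this library fell with GC content (Spearman -0.236 over 12329 genes, which are not independent replicates), and over the 36 members the same value was -0.035.

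In CPM, more members of that library lay above the controls than below. There were 22 above both shRenilla libraries (38.8% of all genes did so) and 6 below both (36.7% of all genes). The TMM factor of this library was above those of both controls, so CPM places it higher against them than the fit does. The median log2 fold change was 0.10, beside -0.0090 over all genes. Above 0 lay 27 of 36 members, beside 6064 of 12457 genes. All of these values come from 1 library, and members are not replicates. At an unadjusted p under 0.05 there were 7 members, against 19.6% of all genes. Of these, 5 were higher (10.0% of all genes were), namely Lamp2, Glb1, Atp6v1a, Ctsb and Gabarap. Glb1 stood at 1.30-fold (log2 fold change 0.38, SE 0.128, adjusted p = 0.1), Atp6v1a at 1.17-fold (adjusted p = 0.187), Ctsb at 1.17-fold (adjusted p = 0.203) and Gabarap at 1.19-fold (adjusted p = 0.234). Npc1 and Sqstm1 were on the lower side, at 0.76-fold (log2 fold change -0.39, SE 0.121, adjusted p = 0.0753) and 0.84-fold (-0.25, adjusted p = 0.198). The 95% interval lay within 1.5-fold for 28 of 36 members, against 59.0% of all genes. Of the 12 hydrolases, 9 lay above both controls and their median log2 fold change was 0.17. Tfeb had the largest fitted change of the set, 0.76 on the log2 scale, but with 29 reads in this library its interval reached from -0.06 to 1.58.

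With shAsns-2 set directly against the library labelled shAsns-1, edgeR called 0 of the 36 members, where 2.14% of all genes were called. DESeq2 and limma-voom called 0 as well. At an unadjusted p under 0.05 there were 6 members, against 16.8% of all genes. Glb1 (log2 fold change -0.46, adjusted p = 0.0806), Gusb (-0.35, adjusted p = 0.113), Lamp2 (-0.30, adjusted p = 0.145) and Atp6v0d1 (-0.30, adjusted p = 0.263) stood lower in shAsns-2. Npc1 (0.29, adjusted p = 0.236) and Tfe3 (0.24, adjusted p = 0.279) stood higher in shAsns-2. The interval lay within 1.5-fold for 30 of 36 members (59.0% of all genes). Without shRenilla B, which enters only through the shared estimate of the spread, Gusb (-0.35, adjusted p = 0.0403) and Lamp2 (-0.30, adjusted p = 0.0446) passed. The call on Lamp2 in the library labelled shAsns-1 is therefore not shown to differ from shAsns-2 with all libraries in the fit.

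The 6 members whose promoter windows hold TCACGTGA were each compared with shRenilla. In shAsns-2 the log2 fold changes were 0.05 for Ctsa, 0.13 for Ctsd, 0.04 for Gla, 0.15 for Mcoln1, -0.24 for Atp6v0d1 and 0.06 for Atp6v1a. In the library labelled shAsns-1 they were 0.17, 0.20, 0.18, 0.08, 0.06 and 0.23 in the same order. None of the 6 was called in either comparison, and both comparisons use the same shRenilla libraries. Both shAsns-2 values lay below both controls at Atp6v0d1 (unadjusted p = 0.0384 in edgeR's quasi-likelihood test) and above both at Ctsd. At the remaining members shAsns-2 overlapped the controls in CPM. With the other hairpin all 6 values were positive, the largest at Atp6v1a. Whether members with the palindrome differ from those without it was not tested.

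Beyond the members, 147 further genes of lysosomes, mTORC1 sensing and autophagy were found in the table and 138 could be tested. In shAsns-2, edgeR, DESeq2 and limma-voom called 0 of the 138, and 9 had an unadjusted p under 0.05 (6 higher, 3 lower), a smaller share than the 9.63% of all genes. The smallest p was that of Gpnmb, a lysosomal glycoprotein that MiT/TFE factors induce. It had 62.6 and 66.4 CPM in shAsns-2 and 89.7 CPM in the library labelled shAsns-1, against 49.5 and 53.1 CPM in shRenilla. Both shAsns-2 libraries lay above both controls, and the library labelled shAsns-1, whose Asns was higher than in shRenilla, lay above all of them. In shAsns-2 it stood at 1.29-fold (log2 fold change 0.36, SE 0.0874, unadjusted p = 0.0007, adjusted p = 0.178). In the library labelled shAsns-1 it rose 1.74-fold (0.80, SE 0.104, adjusted p = 0.000324), a call that DESeq2 and limma-voom shared.

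In the library labelled shAsns-1, 5 of the 138 related genes rose and 1 fell, and 132 were not called. That share is close to the 4.37% of all genes called in this comparison, so the counts per list describe which genes passed and set no list apart. Among other hydrolases, 2 of 37 rose. Asah1, the acid ceramidase, had 156 and 157 CPM in shAsns-2 and 216 CPM in the library labelled shAsns-1, against 142 and 158 CPM in shRenilla, so that it rose in that library by a log2 fold change of 0.51 (adjusted p = 0.0068). Ctsh, cathepsin H, had 168 and 157 CPM in shAsns-2 and 204 CPM in the library labelled shAsns-1, against 154 and 161 CPM in shRenilla (0.36, adjusted p = 0.0472; not called by DESeq2, adjusted p = 0.0939, or limma-voom, adjusted p = 0.0515). Cargo receptors and mitophagy had 2 of 8 genes up. Bnip3, a mitophagy receptor that hypoxia induces, had 27.1 and 36.4 CPM in shAsns-2 and 54.8 CPM in the library labelled shAsns-1, against 28.2 and 30.9 CPM in shRenilla (0.88, adjusted p = 0.00182). Fundc1, another receptor of the outer mitochondrial membrane, had 44.5 and 43.8 CPM in shAsns-2 and 60.8 CPM in the library labelled shAsns-1, against 38.9 and 46.8 CPM in shRenilla (0.50, adjusted p = 0.0272). That call was lost in DESeq2 (adjusted p = 0.133) and with the GC trend removed (0.33, adjusted p = 0.156). The shAsns-2 values of Asah1, Ctsh, Bnip3 and Fundc1 overlapped the controls.

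Of 18 other lysosomal membrane proteins, 1 rose (Gpnmb) and 1 fell. Slc11a2, the iron transporter DMT1, was the related gene that fell in the library labelled shAsns-1. It had 71.1 and 68.5 CPM in shAsns-2 and 52.8 CPM in that library, against 72.8 and 67.0 CPM in shRenilla (log2 fold change -0.42, adjusted p = 0.0459). DESeq2 (adjusted p = 0.157) and limma-voom (adjusted p = 0.0559) did not call it. Without shAsns-2 A, shAsns-2 B or shRenilla A, Ctsh, Fundc1 and Slc11a2 were not called (adjusted p = 0.0538 to 0.136), while Gpnmb, Asah1 and Bnip3 were called in each of these fits. Of the other lists, 0 genes were called among 11 further subunits of the proton pump, 9 genes of mannose 6-phosphate sorting, 20 of mTORC1 sensing at the lysosome, 14 of autophagy initiation, 8 of ATG8 conjugation and 13 of fusion. Their medians in that library ran from -0.21 for ATG8 conjugation to 0.082 for mTORC1 sensing. In shAsns-2 the same lists had medians of -0.11 to 0.041.

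**Figure D4:**
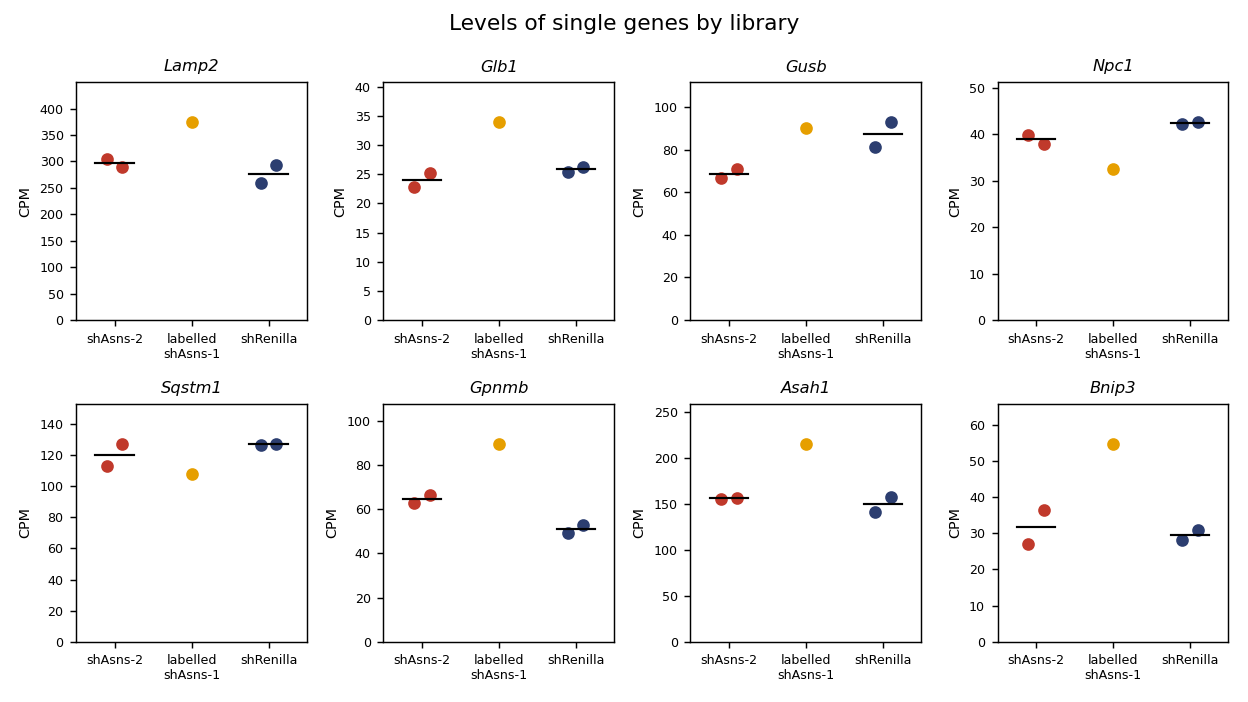
CPM of 8 genes in each library, with shAsns-2, the library labelled shAsns-1 and shRenilla from left to right and axes that start at 0. Lines are means of 2 libraries. Lamp2, Gpnmb, Asah1 and Bnip3 are highest in the library labelled shAsns-1, Gusb is lowest in shAsns-2, and at Gpnmb both shAsns-2 libraries also lie above both shRenilla libraries.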

How the data were processed

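Total RNA was extracted with Trizol and made into libraries with a Nugen Ovation kit, per the labels' protocols. The authors deposited whole-number read counts per gene; the submitters' processing notes name Bowtie2, HTSeq and mm10. For versions, annotation and strand the entry is "not given in the sources used here". HTSeq's tallies stayed out of library sizes: reads in no feature made up 36.1 to 38.3% of a library, unaligned reads 23.2% in the library labelled shAsns-1 and 17.9 to 20.1% in the others, and reads matching several genes 0.584 to 0.626%. The tally of reads with several alignments was 0, so that tally removed no reads from near-identical copies. A column with 0 reads throughout (shAsns-1 B) was left out, and the remaining shAsns-1 library was taken to vary as those of the other hairpins do.

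The fit used edgeR 4.0.16 under R 4.3.3, with filterByExpr, TMM factors, 1 term per hairpin and quasi-likelihood tests with 2 residual degrees of freedom. P-values were adjusted by Benjamini-Hochberg over 12457 genes and called under 0.05. Intervals of fold changes come from this fit and its shared spread between libraries; floors cover counting error only. Alternatives were RLE factors, DESeq2 1.42.0, limma-voom (limma 3.58.1), no filter, a replicate block, a GC correction (loess offsets, span 0.5, with GC from GENCODE M21 for 12329 genes) and leaving out each library. CPM and RPKM were computed from the counts without TMM factors. RPKM used merged exons of GENCODE M21 basic (GRCm38), to which 23072 of 23486 rows matched by symbol. Libraries of 1 group were not duplicates (their counts differed by a chi-square of 3.17 per degree of freedom in shAsns-2 and 9.20 in shRenilla). The test scripts were checked on simulated data. Members, related lists, motif and markers were chosen with earlier results of these data known. By the rule for named genes any member may be named; values per library were required for called members, the MiT/TFE and ATG8 genes, Sqstm1 and up to 2 members per subclass with the smallest p, and related genes are named where called, at most 4 per list and comparison.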

Additional observations from a re-analysis of the deposited data

Results flagged for a closer look

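Of Asns, the 36 members and the 138 related genes, 4 were called with shAsns-2 set directly over the library labelled shAsns-1. In that test the shared controls cancel. Of all genes, 2.14% were called in it, so a count of this size sets no list apart. Asns had a log2 fold change of -1.26 (adjusted p = 5.96e-06), lower in shAsns-2, since the library labelled shAsns-1 held more Asns reads than the controls. Bnip3 had -0.73 (adjusted p = 0.0124), Gpnmb -0.43 (adjusted p = 0.0398) and Asah1 -0.43 (adjusted p = 0.0336), each lower in shAsns-2. With 1 library on that side, hairpin and library cannot be told apart. Without shAsns-2 A these were not called, at -0.55 for Bnip3 (adjusted p = 0.163), -0.40 for Gpnmb (0.356) and -0.43 for Asah1 (0.31). With the GC trend removed they were not called either, at -0.59 for Bnip3 (adjusted p = 0.0538), -0.41 for Gpnmb (0.0608) and -0.31 for Asah1 (0.146). Without shAsns-2 B, Gpnmb at -0.47 (adjusted p = 0.162) and Asah1 at -0.43 (0.22) were not called, nor was Gpnmb at -0.43 in DESeq2 (0.141). None of the 36 members was called by this test, which does not show that they were equal.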

How the results depend on the processing

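In at least 1 alternative the fitted sign changed for 12 of 36 members in shAsns-2, 11 in the library labelled shAsns-1 and 5 between the hairpins; none of these had an unadjusted p under 0.05, and their log2 fold changes were at most 0.17, 0.10 and 0.12 in size. Of the medians only that of shAsns-2, near 0, changed sign (-0.00040 with DESeq2). The count of members called in shAsns-2 was 0 throughout, leaving out each library included (0 to 0), except 1 with the replicate block. In the library labelled shAsns-1 it was 2 with no filter and with the replicate block, 0 with the GC trend removed, and 0 to 1 on leaving out a library. Between the hairpins it was 2 with the replicate block and 0 to 2 on leaving out a library. The median log2 fold change of members in shAsns-2 was 0.044 with the GC trend removed, beside 0.025 over all genes. On leaving out a library it was 0.0049 to 0.048. In the library labelled shAsns-1 the member median was 0.080 with no filter, beside -0.029 over all genes. With the GC trend removed it was 0.13, beside -0.015 over all genes. It was 0.13 with the replicate block and 0.10 to 0.15 on leaving out a library. Between the hairpins the member median was -0.11 with no filter, beside 0.019 over all genes. With the GC trend removed it was -0.11, beside 0.031 over all genes, and on leaving out a library -0.14 to -0.11. Over 8952 genes the A minus B deviations of shAsns-2 and shRenilla had a correlation of 0.0268. That value does not tell whether A and B mark a shared culture or day, which the labels do not say. With the replicate block 178 genes were called in shAsns-2 against 8, 924 against 544 in the library labelled shAsns-1 and 875 against 267 between the hairpins. Under it Gusb (-0.31, adjusted p = 0.0388) and Asns (-0.33, adjusted p = 0.0388) were called in shAsns-2, Npc1 (-0.41, adjusted p = 0.0475) in the library labelled shAsns-1, and Glb1 (-0.50) and Gusb (-0.42) between the hairpins. Gpnmb passed in shAsns-2 with no filter (0.36, adjusted p = 0.0397) and with the replicate block (adjusted p = 0.0163). With no filter 114 genes were called in shAsns-2, 919 in the library labelled shAsns-1 and 608 between the hairpins; with DESeq2 5, 235 and 153; with the GC trend removed 9, 333 and 149. On leaving out a library they were 0 to 47, 290 to 825 and 58 to 642. Depth limits Tfeb and Map1lc3a, whose intervals exceed 1.5-fold. The causes were not tested.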

Other observations

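The related genes below were picked after their values were seen, and none was called in shAsns-2. Igf2r, the large mannose 6-phosphate receptor, had 351 and 311 CPM in shAsns-2 and 268 CPM in the library labelled shAsns-1, against 304 and 230 CPM in shRenilla (shAsns-2 over shRenilla: log2 fold change 0.34, adjusted p = 0.331). Gga2, an adaptor for those receptors at the Golgi, had 21.6 and 23.9 CPM in shAsns-2 and 25.9 CPM in the library labelled shAsns-1, against 27.8 and 30.4 CPM in shRenilla (-0.32, adjusted p = 0.343). M6pr, the small mannose 6-phosphate receptor, had 177 and 173 CPM in shAsns-2 and 162 CPM in the library labelled shAsns-1, against 185 and 196 CPM in shRenilla (-0.09, adjusted p = 0.733). Of the 9 genes of this sorting list, 6 lay below both controls in shAsns-2 by CPM, as did 25.8% of all genes. Another 2 lay above both (16.6% of all genes). Dnase2a, the acid DNase of lysosomes, had 10 and 13 reads in shAsns-2 and 10 reads in the library labelled shAsns-1, against 3 and 6 reads in shRenilla. Its fold change in shAsns-2 was 3.16 with a log2 interval of 0.42 to 2.90 (adjusted p = 0.377); these few reads limit its precision.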
